A study of Mus musculus with 8 samples.

Results

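The Cyp3a genes encode cytochrome P450 enzymes of subfamily 3A, and 6 mouse members were examined here: Cyp3a11, Cyp3a13, Cyp3a16, Cyp3a25, Cyp3a41a and Cyp3a44. They were found by gene symbol, older aliases included, in the annotation of the array. Of the 6, 5 had a feature (a probe spot) with their symbol, and these 5 held 7 of the 31465 features that carried a symbol. No feature named Cyp3a41a, so it has no value here. The 3 other Cyp3a genes on the array, Cyp3a41b, Cyp3a57 and Cyp3a59, had 4 features and are given beside the members, which makes 8 measured Cyp3a genes among 20738 named genes.

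Liver RNA came from male CD-1 mice, an outbred stock, fed for 7 days either a control diet (0 ppm) or food holding NaPB, which is sodium phenobarbital, at 2500 ppm. Each diet had 4 one-colour Agilent arrays, and the comparison asks which transcripts differed between the diets. The title of the series names mice with humanized livers; those livers were not analysed here. No allele or second agent is named for either diet, ages are not stated in the labels, and no label ties an array to 1 animal. The p-values therefore reflect the scatter among these arrays alone, and that scatter may be technical.

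CYP3A enzymes sit in the endoplasmic reticulum and oxidise steroids, bile acids and many drugs, with electrons supplied by cytochrome P450 reductase and cytochrome b5. In liver their genes are classic targets of the pregnane X receptor (PXR, gene Nr1i2), a nuclear receptor that pairs with RXR and binds repeats of a short half-site near AGGTCA or AGTTCA. The constitutive androstane receptor (CAR, gene Nr1i3), which phenobarbital activates, can bind many of the same elements. Cyp3a11 is known as a main CYP3A enzyme of adult liver in both sexes, Cyp3a16 as a form of perinatal liver, and Cyp3a41 and Cyp3a44 as forms more abundant in females than in males.

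The stretch of 250 bases before the RefSeq start of 5 members is shown here because these are the 5 with a measured feature. The sequences are from RefSeq (assembly GRCm38.p6), written 5′ to 3′ on the strand of the gene. Each half-site AGGTCA or AGTTCA, in either orientation, is in capitals. All 5 genes lie on the minus strand of chromosome 5. The stretch of Cyp3a44 is chr5:145805875-145806124, that of Cyp3a16 chr5:145469724-145469973, that of Cyp3a11 chr5:145879855-145880104, that of Cyp3a25 chr5:146009619-146009868 and that of Cyp3a13 chr5:137921620-137921869.
Cyp3a44: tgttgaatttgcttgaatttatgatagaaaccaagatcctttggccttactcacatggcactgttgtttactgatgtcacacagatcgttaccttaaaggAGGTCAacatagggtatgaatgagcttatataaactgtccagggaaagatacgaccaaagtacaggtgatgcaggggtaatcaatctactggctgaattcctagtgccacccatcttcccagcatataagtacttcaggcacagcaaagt
Cyp3a16: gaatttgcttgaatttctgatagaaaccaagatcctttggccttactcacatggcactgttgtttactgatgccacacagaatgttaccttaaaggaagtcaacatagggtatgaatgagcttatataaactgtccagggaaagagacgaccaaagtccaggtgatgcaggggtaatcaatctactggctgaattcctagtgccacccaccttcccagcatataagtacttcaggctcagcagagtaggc
Cyp3a11: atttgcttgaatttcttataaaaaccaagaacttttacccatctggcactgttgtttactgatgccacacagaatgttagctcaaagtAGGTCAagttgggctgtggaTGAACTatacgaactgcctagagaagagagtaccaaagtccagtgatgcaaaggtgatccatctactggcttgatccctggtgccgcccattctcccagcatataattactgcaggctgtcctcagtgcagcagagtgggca
Cyp3a25: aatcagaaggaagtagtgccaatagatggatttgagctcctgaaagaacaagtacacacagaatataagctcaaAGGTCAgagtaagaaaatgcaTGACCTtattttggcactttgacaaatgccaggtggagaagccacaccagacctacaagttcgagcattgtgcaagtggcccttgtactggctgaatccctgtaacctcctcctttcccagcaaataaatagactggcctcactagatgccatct
Cyp3a13: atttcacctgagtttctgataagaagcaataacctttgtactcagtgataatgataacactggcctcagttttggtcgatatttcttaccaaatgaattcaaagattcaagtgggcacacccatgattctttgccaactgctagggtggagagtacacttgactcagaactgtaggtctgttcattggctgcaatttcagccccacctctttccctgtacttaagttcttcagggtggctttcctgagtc

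The search covered 300 bases, from 250 before to 50 after the start, on both strands. Of the 9 Cyp3a promoters in the reference table, 7 held at least 1 half-site, against 27.7% of 32851 mouse promoters. AGGTCA was in 5 of the 9 (16.3% of all promoters) and AGTTCA in 3 (14%). Cyp3a44 carried AGGTCA at position -150 from the start. Cyp3a11 carried AGGTCA at -162 and AGTTCA on the opposite strand at -142, and Cyp3a25 carried AGGTCA on one strand at -176 and on the other at -155. Cyp3a16 and Cyp3a13 held neither half-site. None of the 9 held these half-sites as a direct repeat 3 or 4 bases apart (0.0122% and 0.0274% of all promoters) or as an everted repeat 6 bases apart (0.00913%), and none held TTCNNNGAA, the motif of STAT5 (8.3%); in this search a repeat contains its half-sites, so those hits overlap. Several of the 9 promoters are near copies of one another, as shown next, so their half-sites are not separate observations. These counts concern exact letters in this window, and nothing about binding follows from them.

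The promoters fell into close groups by sequence. In global alignments of the 300 bases, Cyp3a44 was 93.4% identical to Cyp3a16, 93% to Cyp3a41a and 91.2% to Cyp3a41b, and 71.8% to Cyp3a11. Cyp3a25 was 95.7% identical to Cyp3a59 and 89.7% to Cyp3a57. Cyp3a13 was between 52.7% and 57.4% identical to the others. At the place of the Cyp3a44 half-site AGGTCA, the Cyp3a16 promoter differed by G2A and both Cyp3a41 promoters by T4C. Positions are counted from 1 at the 5′ end of the half-site. Cyp3a11 and Cyp3a57 had the same 6 letters, and Cyp3a13 had AATTCA. In Cyp3a25 and Cyp3a59 the alignment placed a gap there (AGGT-A). Cyp3a57, Cyp3a25 and Cyp3a59 were only 55.6%, 56.4% and 55.3% identical to Cyp3a44, so the matching place is less certain in them.

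Cyp3a44 and Cyp3a16 rose on the NaPB diet, Cyp3a16 by 3.30-fold and Cyp3a44 by at least 8.28-fold against the floor of the arrays. That floor was set at 2 times the lowest value of each array, and the bound depends on this choice. All 5 measured members had a higher mean on NaPB than on control, but Cyp3a11, Cyp3a13 and Cyp3a25 did not pass the test, which was limma with Benjamini-Hochberg adjustment over all 20738 genes and a call at an adjusted p below 0.05. So 2 of the 5 measured members were called, both higher and 0 lower, beside 1.01% of all genes called in either direction and 0.391% called higher. The 4 arrays of each diet did not overlap for the same 2 members, beside 2.72% of all genes whose NaPB arrays all lay above the control arrays. Without adjustment 4 of the 5 had a limma p below 0.05, and so did 2095 of the 20738 genes. The median log2 fold change over the 5 was 1.52, or 1.38 over all 8 measured Cyp3a genes, against 0.01 over all genes tested. A log2 fold change of at least 1 was seen in 4 of the 5 and in 2.91% of all genes. Tested singly, 2 of the 7 member features were called, against 0.849% of all features.

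**Figure D1:**
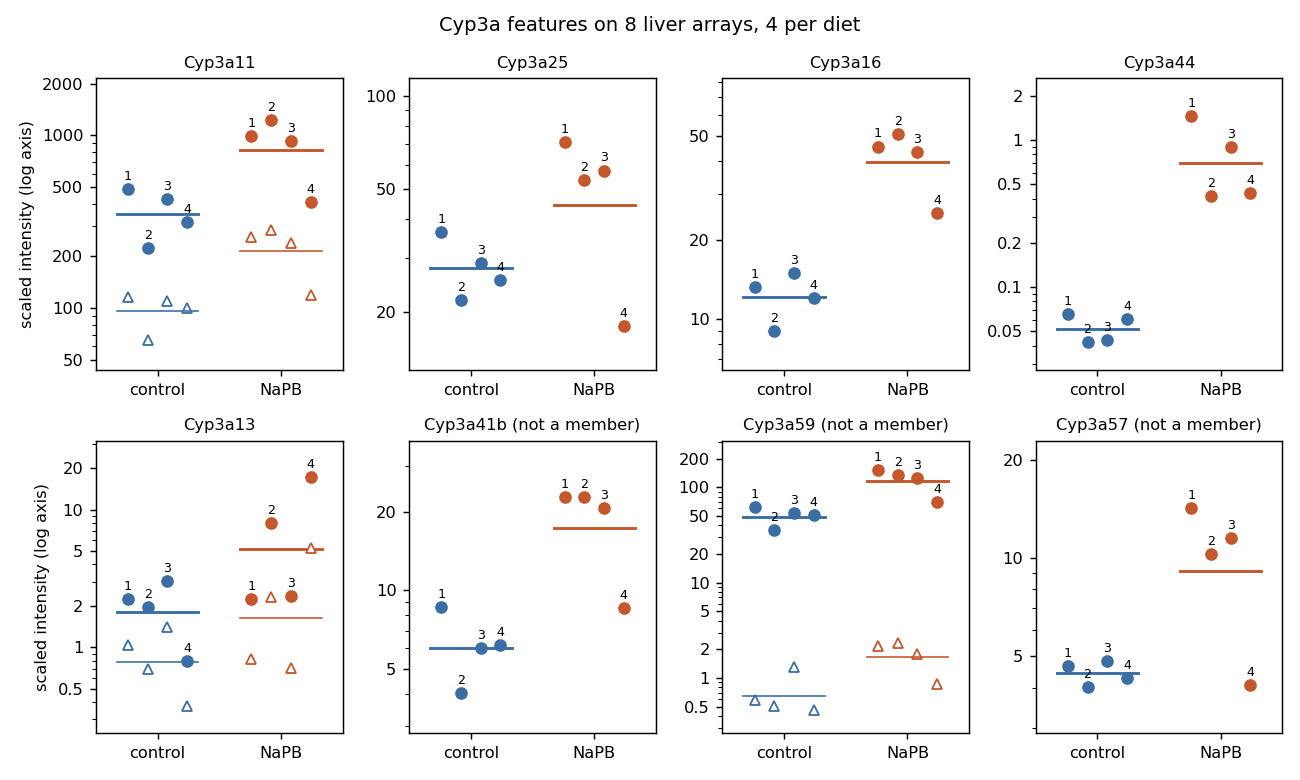
Scaled intensity (log axis) of each Cyp3a feature on the 4 control and 4 NaPB arrays; numbers are the replicates, filled circles the brightest feature of a gene, open triangles its second feature, lines the geometric means. NaPB replicate 4 is the lowest NaPB array for Cyp3a11, Cyp3a25 and Cyp3a16 and the highest for Cyp3a13, and the control arrays of Cyp3a44 lie between 0.0423 and 0.0657.

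Cyp3a11 was measured by 2 features. On the brighter one the control arrays (replicates 1 to 4) read 490.2, 223.9, 428.3 and 315.1 in scaled intensity units, and the NaPB arrays 993.7, 1233, 924.3 and 410.2. NaPB replicates 1 to 3 were above every control array, and replicate 4 lay between control replicates 4 and 3, so the diets overlapped. The log2 fold change was 1.24 ± 0.39 (limma SE, n = 4 per diet), with a limma adjusted p of 0.237 and a 95% interval from 0.37 to 2.11. The second feature read 116.3, 65.66, 110.3 and 100.4 on control and 257.4, 284.7, 237.7 and 118.5 on NaPB. Here the diets did not overlap, by a narrow margin between NaPB replicate 4 and control replicate 1, and the log2 fold change was 1.15 ± 0.35 (limma adjusted p = 0.216 among features). Without NaPB replicate 4 the brighter feature gave a log2 fold change of 1.58 and a limma adjusted p of 0.0475, and with array weights on all 8 arrays 1.57 and 0.0164.

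Cyp3a25, a further CYP3A enzyme of adult liver, read 36.29, 21.92, 28.88 and 25.40 on control and 71.07, 53.61, 57.43 and 18.01 on NaPB. Replicates 1 to 3 of NaPB were above all control arrays, while replicate 4 was below all of them. The log2 fold change was 0.69 ± 0.42 (limma SE, n = 4 per diet; adjusted p = 0.683), and its 95% interval ran from -0.23 to 1.61. It was 1.12 without NaPB replicate 4 (limma adjusted p = 0.0840).

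Cyp3a16 read 13.16, 9.009, 14.96 and 11.96 on control and 45.45, 50.58, 43.37 and 25.25 on NaPB. Every NaPB array was above every control array, with replicate 4 the lowest of its diet. It rose by 1.72 ± 0.31 log2 units (limma SE, n = 4 per diet; adjusted p = 0.0287; 95% interval 1.05 to 2.40). The call rested on all arrays but NaPB replicate 4: leaving out any one of the other 7 gave log2 fold changes from 1.58 to 1.83 and limma adjusted p from 0.0502 to 0.111, and leaving out NaPB replicate 4 gave 1.94 and 0.00915. The adjusted p was also 0.0666 when arrays were shifted to the same median.

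Cyp3a44 read 0.0657, 0.0423, 0.0440 and 0.0608 on control, values within 2 times the lowest value of each array and so counted as at the floor. On NaPB it read 1.469, 0.4164, 0.8927 and 0.4356, all above the floor, so the diets did not overlap and replicates 1 and 3 were the highest. The spot was dim on NaPB too. The medians of the NaPB arrays were 0.335 to 0.385, and only replicate 1 read above the 75th percentile of its array (0.955). Against the floor the rise was at least 8.28-fold, and at least 6.46-fold without NaPB replicate 1. The fitted log2 fold change, which is set in part by the floor, was 3.74 ± 0.42 (limma SE, n = 4 per diet; adjusted p = 0.00248). It passed with each array left out in turn (limma adjusted p from 0.00336 to 0.0138) and failed with 1 added to every value, which is above the whole control range (log2 difference 0.74, adjusted p = 0.126).

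Cyp3a13, known from liver and intestine and encoded outside the main Cyp3a cluster, showed another order of arrays. Its brighter feature read 2.250, 1.973, 3.019 and 0.793 on control and 2.248, 7.935, 2.349 and 17.31 on NaPB. NaPB replicates 4 and 2 were above all control arrays, while replicates 1 and 3 lay inside the control range. The log2 fold change was 1.52 ± 0.66 (limma SE, n = 4 per diet; adjusted p = 0.463), and it was 0.94 without NaPB replicate 4. The second feature read 1.044, 0.698, 1.399 and 0.377 on control and 0.826, 2.332, 0.708 and 5.264 on NaPB. Its high arrays were the same, and it gave 1.06 ± 0.63 log2 units (limma adjusted p = 0.672 among features).

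**Figure D2:**
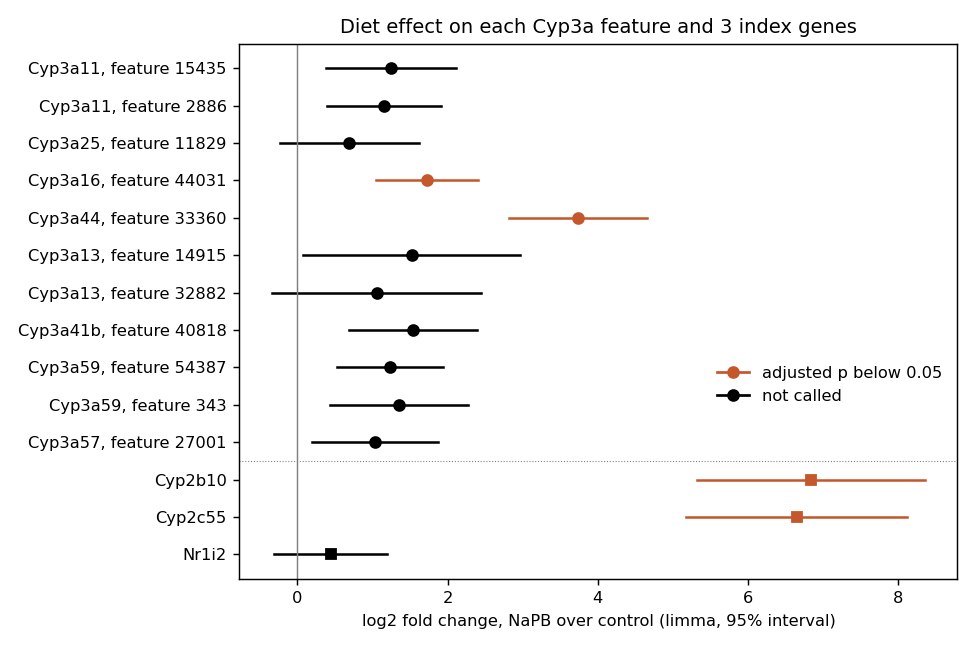
Log2 fold change, NaPB over control, of each of the 11 Cyp3a features and of Cyp2b10, Cyp2c55 and Nr1i2 (points), with 95% limma intervals (bars); orange marks an adjusted p below 0.05. All 11 Cyp3a features lie above 0, between 0.69 and 3.74, and those of Cyp3a16 and Cyp3a44 are orange; the value of Cyp3a44 is set in part by the floor.

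The 3 other Cyp3a genes did not pass, though some did under other settings with all 8 arrays kept. With quantile normalization the limma adjusted p was 0.0159 for Cyp3a41b and 0.0212 for Cyp3a59, and with array weights it was 0.00527 for Cyp3a41b, 0.00997 for Cyp3a59 and 0.0193 for Cyp3a57. Cyp3a41b, a near-identical neighbour of Cyp3a41a whose probe may also take up Cyp3a41a transcripts, read 8.654, 4.014, 6.007 and 6.167 on control and 22.73, 22.87, 20.73 and 8.523 on NaPB. NaPB replicate 4 lay just under control replicate 1, so the diets overlapped, and the difference was 1.54 ± 0.38 log2 units (limma adjusted p = 0.111). The brighter Cyp3a59 feature read from 35.43 to 61.44 on control and from 70.27 to 152.1 on NaPB without overlap, at 1.23 ± 0.32 (limma adjusted p = 0.128). Cyp3a57 read from 4.027 to 4.835 on control and from 4.082 to 14.25 on NaPB, at 1.03 ± 0.38 (limma adjusted p = 0.343), with NaPB replicate 4 inside the control range. Close sequence within the family means that a probe can take up transcripts of its relatives, so these 8 genes are not 8 separate measurements.

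NaPB replicate 4 was the lowest NaPB array for 8 of the 11 Cyp3a features. Relative to the mean of NaPB replicates 1 to 3 it stood at -1.74 log2 units for Cyp3a25, -1.54 for Cyp3a57, -1.37 for Cyp3a41b, -1.35 for Cyp3a11, -0.96 for Cyp3a59, -0.91 for Cyp3a44 and -0.88 for Cyp3a16, but at 2.32 for Cyp3a13. The same array was the lowest NaPB array for Cyp2b10, the textbook CAR target, which read 521.2, 490.6, 429.5 and 77.73 on NaPB and from 0.8634 to 5.222 on control. It was also lowest for Cyp2c55, another induced P450, at 1.629 against 8.495 to 15.45 on NaPB replicates 1 to 3. Array weights, which limma estimates from the scatter over all genes, were 0.313 for NaPB replicate 4 and 0.308 for control replicate 1, against 1.14 to 1.98 for the other 6. Without NaPB replicate 4, 6 of the 8 measured Cyp3a genes were called, 3 of them members, and 365 genes in all were called in place of 209; without both arrays it was 7 of 8, with Cyp3a25 at 1.25 (limma adjusted p = 0.0378). Leaving out the lowest NaPB array of a gene raises its fold change by construction, so these higher counts are no separate support for a response. Cyp3a13 passed under no alternative tried.

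**Figure D3:**
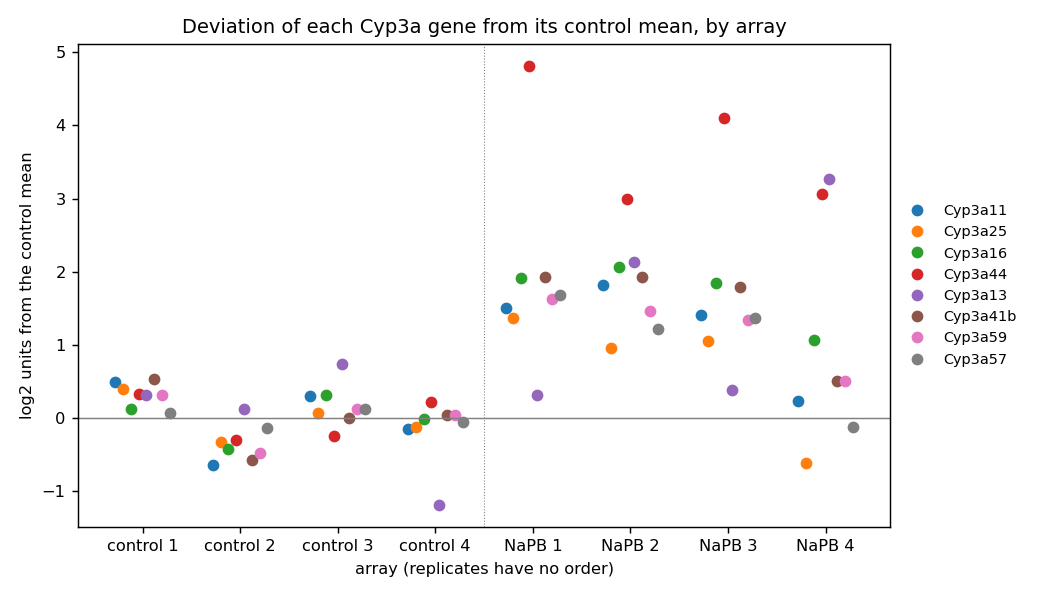
Deviation of each measured Cyp3a gene (brightest feature, colours) from its own control mean, in log2 units, on each of the 8 arrays. On NaPB replicate 4 Cyp3a25 lies at -0.62 and Cyp3a11 at 0.23, while Cyp3a13 lies at 3.26; on NaPB replicates 1 to 3 every gene is above 0, with Cyp3a13 at 0.32 and 0.38 on replicates 1 and 3.

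Whether members responded to different degrees was compared within arrays, as the difference between 2 members' log2 values, over all 10 pairs of measured members. The difference of Cyp3a11 minus Cyp3a16 in response was -0.48 ± 0.18 log2 units (exact permutation p = 0.0286, two-sided, the smallest that 4 against 4 arrays allow). After quantile normalization it was -0.30 ± 0.26, with overlap between the diets (exact permutation p = 0.371). That of Cyp3a16 minus Cyp3a25 was 1.03 ± 0.27, with the same exact p of 0.0286. Cyp3a44 had the larger log2 response against Cyp3a11, Cyp3a16 and Cyp3a25, with the same exact p each, but these sizes depend on the floor. With 1 added to every value the direction turned for Cyp3a11 minus Cyp3a44 (0.50 ± 0.42, exact permutation p = 0.314) and for Cyp3a16 minus Cyp3a44 (0.91 ± 0.27, exact permutation p = 0.0286), and Cyp3a25 minus Cyp3a44 was -0.06 ± 0.37. After Benjamini-Hochberg adjustment over the 10 pairs these 5 exact permutation p were 0.0571 each, so 0 pairs passed; at this number of arrays more than 5 of the 10 pairs would have to reach the smallest p for any to pass. Cyp3a11 and Cyp3a25 differed by 0.55 ± 0.21 (exact permutation p = 0.0571, adjusted 0.0952). The 4 pairs with Cyp3a13 had exact permutation p from 0.171 to 0.886 and standard errors from 0.97 to 1.23, which leaves wide room for a difference.

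Along chromosome 5 the Cyp3a genes form a cluster of 23 annotated genes, 11 of which are Cyp3a genes or pseudogenes, and Cyp3a13 lies apart. In their annotated order the measured ones are Cyp3a57 (log2 fold change 1.03), Cyp3a16 (1.72), Cyp3a41b (1.54), Cyp3a44 (3.74), Cyp3a11 (1.24), Cyp3a25 (0.69) and Cyp3a59 (1.23). The measured genes that flank the cluster were not called: Zkscan5 stood at -0.44 ± 0.30, Zfp655 at -0.12 ± 0.32 and Zscan25 at 0.15 ± 0.55 on one side, and Rnf6 at -0.41 ± 0.39, Cdk8 at 0.33 ± 0.29 and Wasf3 at -0.75 ± 0.33 on the other. Inside the cluster 1700001J03Rik stood at 0.10 ± 0.49, and Gm5565 was at the floor on all 8 arrays. The neighbours of Cyp3a13 were not called either, from -0.39 ± 0.34 for Pilrb2 to 0.81 ± 0.67 for Pilrb1. Over all genes 1.01% were called, so few calls would be met among so few neighbours in any case. Flanking genes and Cyp3a genes were not tested against each other.

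**Figure D4:**
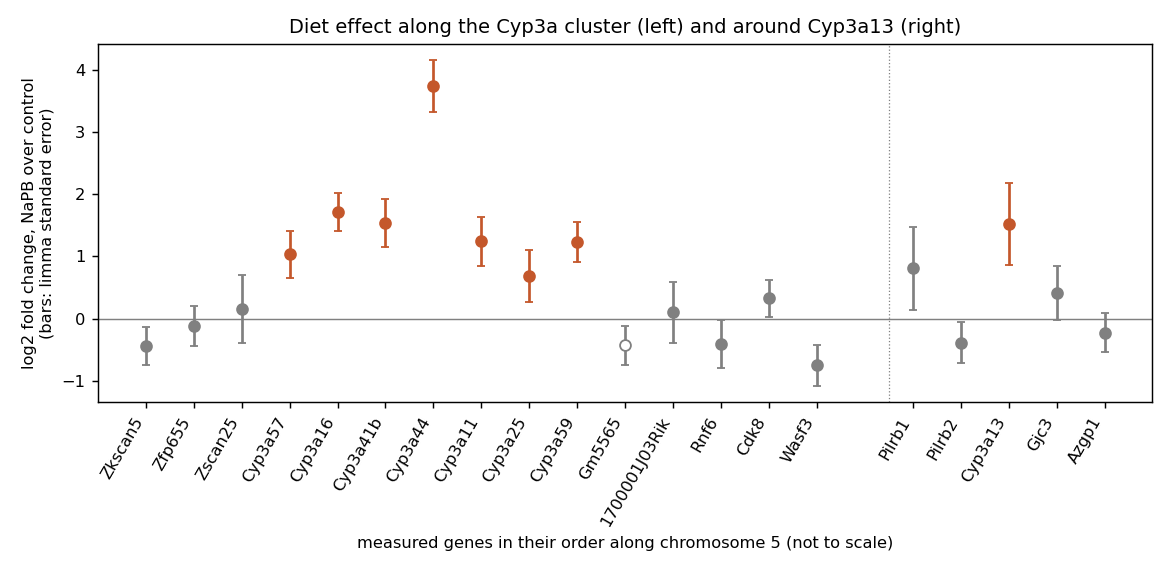
Log2 fold change, NaPB over control (points; bars, limma SE, n = 4 per diet), of measured genes in their order along chromosome 5, not to scale: the Cyp3a cluster with its flanks at left and the surroundings of Cyp3a13 at right. Cyp3a genes are orange whether called or not, other genes grey, and the open point is Gm5565, at the floor on all arrays; the Cyp3a genes lie between 0.69 and 3.74 and their neighbours between -0.75 and 0.81.

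The receptor genes themselves did not pass. Nr1i2 (PXR) read 1.876, 1.555, 2.460 and 1.584 on control and 3.019, 3.710, 2.475 and 1.398 on NaPB. Replicates 1 to 3 of NaPB were above all control arrays, replicate 3 by a small margin, and replicate 4 was below all of them. The log2 fold change was 0.44 ± 0.34 (limma SE, n = 4 per diet; adjusted p = 0.757), and that of Nr1i3 (CAR) was -0.21 ± 0.33. Of 16 measured genes for PXR, CAR, their partner receptors and cofactors 0 were called (limma, adjusted over all genes), and 0 had an unadjusted p below 0.05. Over all 20738 genes 1.01% were called and 2095 had such an unadjusted limma p, so 0 of 16 stands near these shares. The list median was -0.12, and the smallest p was that of the corepressor Ncor1 (-0.50 ± 0.30, limma adjusted p = 0.665).

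Of 20 other known PXR or CAR target genes measured, 10 were called, all higher, and the median log2 fold change was 1.70. Over all genes 1.01% were called, and this list was chosen with earlier results of these data known. The P450 genes Cyp2b10 (6.84 ± 0.69 log2 units) and Cyp2c55 (6.65 ± 0.67, with 3 of its control arrays at the floor) had the largest fitted changes of the list. Among conjugating enzymes the glutathione transferases Gstm3 (5.47 ± 0.50), Gsta1 (5.01 ± 0.48), Gsta2 (4.00 ± 0.40) and Gstm1 (2.95 ± 0.36) rose, and the sulfotransferase Sult2a1, at the floor on all control arrays, rose by at least 36.9-fold. The carboxylesterases Ces2c (2.52 ± 0.31) and Ces2a (2.38 ± 0.33) and the aldehyde dehydrogenase Aldh1a7 (2.10 ± 0.38) rose as well.

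Of 12 genes for electron transfer and heme supply to P450 enzymes 0 were called by limma, 3 had an unadjusted p below 0.05, and the median was -0.05. Among all 20738 genes, 1.01% were called and 2095 had such an unadjusted p. Por, the P450 reductase, had the smallest p (2.61 ± 0.59, limma adjusted p = 0.0761). Without NaPB replicate 4 there were 3 calls in this list, among 365 calls over all genes. Cyb5a, cytochrome b5, stood at 1.20 ± 0.37 (limma adjusted p = 0.228).

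Since Cyp3a41 and Cyp3a44 are known as female-biased in mouse liver, other sex-biased liver genes were counted in these male livers. These lists, like the others here, were chosen with earlier results of these data known. Over all 20738 genes 1.01% were called, and 2095 had an unadjusted limma p below 0.05. Of 11 female-biased genes outside the Cyp3a family 7 were called, all higher, with a median of 4.08 (4.06 with genes whose control arrays were all at the floor set at their bound). They were Sult2a1, Sult2a2 (at least 15.4-fold), the cell surface protein gene Prom1 (5.49 ± 0.76), Cyp2b9 (4.63 ± 0.65), Cyp2b13 (4.17 ± 0.68), Sult3a1 (4.08 ± 0.65) and Cyp2a4 (4.06 ± 0.62). With 1 added to every value 0 of them were called, and with genes below the median intensity left out 4 were. Of the 11, 9 lay above 0, while Cux2 (-0.38 ± 0.27) and A1bg (-0.49 ± 0.45) lay below. Sult2a1 is also in the list of PXR and CAR targets and Cux2 in the growth hormone list. Bcl6 is in both the male-biased and the growth hormone list, so these lists are not separate. Cyp2b9 and Cyp2b13 share a subfamily with Cyp2b10 (6.84 ± 0.69), and their probes may also take up its transcripts. The part of such take-up, and of drug induction, in the count of 7 was not tested. Of 11 male-biased genes 1 was called, the hydroxysteroid dehydrogenase gene Hsd3b5, which fell by 6.30 ± 0.91 log2 units; 6 had an unadjusted p below 0.05, 0 of the 11 lay above 0, and the median was -0.80. Of 11 growth hormone and STAT5 signalling genes 0 were called (limma, adjusted over all genes) and 2 had an unadjusted p below 0.05, with a median of -0.48 and the smallest p for the receptor gene Ghr (geometric mean intensity 56.9 on control and 28.5 on NaPB, adjusted p = 0.348).

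Because Cyp3a16 is known from perinatal liver, 5 fetal liver genes were counted as well. Beside the counts that follow, 1.01% of all 20738 genes were called and 2095 had an unadjusted limma p below 0.05. Igf2, a fetal growth factor gene, was called and fell by 2.24 ± 0.39 log2 units, with 3 NaPB arrays at the floor, though this call was lost when any 1 of 6 arrays was left out; the other 4 did not pass, and the list median was -0.36. Of 8 pericentral hepatocyte genes 0 were called, with 4 at an unadjusted p below 0.05 (median -0.57; Slc1a2, a glutamate transporter, -1.36 ± 0.35, limma adjusted p = 0.126). Of 7 periportal genes 0 were called as well, with 1 at an unadjusted p below 0.05 (median -0.04; Hal, histidine ammonia lyase, -0.65 ± 0.26, limma adjusted p = 0.406).

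**Figure D5:**
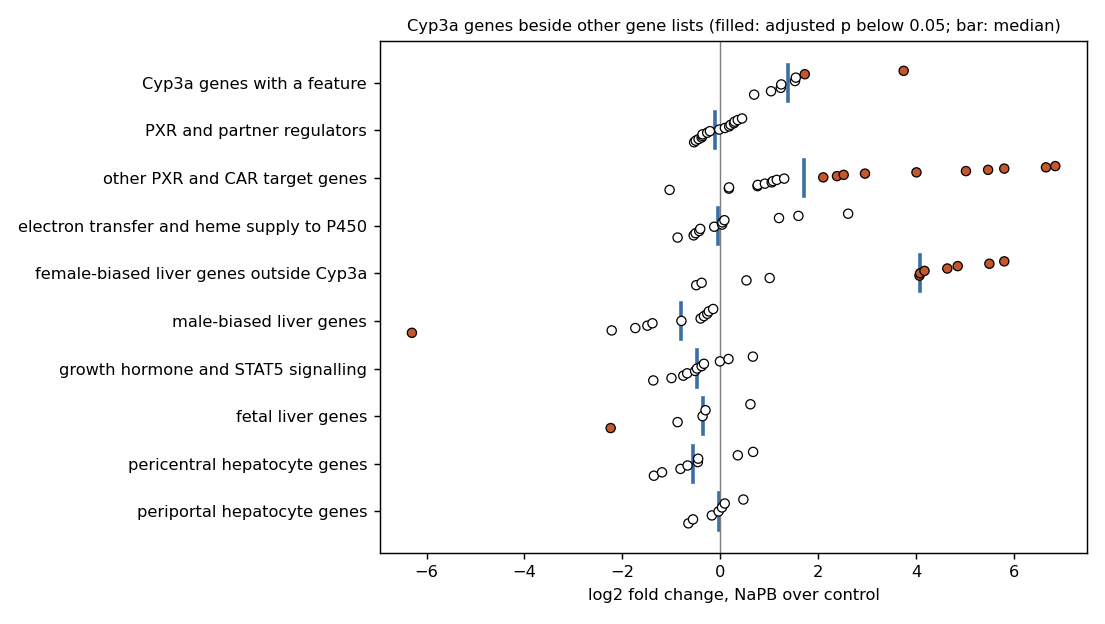
Log2 fold change, NaPB over control, of the measured Cyp3a genes and of the members of 9 other gene lists (1 point per gene, filled at an adjusted p below 0.05; vertical bars, list medians). The Cyp3a genes lie between 0.69 and 3.74 with a median of 1.38, the other PXR and CAR targets have a median of 1.70 and the receptor list one of -0.12.

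Genes whose pattern over the 8 arrays was nearest to a member were found by the root-mean-square difference in log2 deviation from the control mean, among 18476 genes outside Cyp3a. Nearest to Cyp3a11 were the glutaredoxin gene Glrx (0.114), Cyb5a (0.136) and the respiratory chain gene Ndufa8 (0.156), with Cyp3a59 at 0.210. Nearest to Cyp3a16 were Rarres1 (0.150), Chaf1b (0.181) and Prelid2 (0.187), with Cyp3a41b at 0.278. For Cyp3a44 they were Gsta2 (0.601), Sult3a1 (0.642) and Gstm2 (0.667), with Cyp3a16 at 1.53. Cyp3a13 had no close pattern: Olfr1260 (0.643), Zfp458 (0.649) and Epha2 (0.689) came first, and the nearest Cyp3a gene was Cyp3a16 at 1.20. These are descriptions over 8 arrays that share 1 contrast, with no test. The nearest of 18476 genes is favoured over the nearest of 7 Cyp3a genes by number alone, so these distances do not rank family against other genes. The measure also grows with a difference in fold size, and that of Cyp3a44 is set in part by the floor.

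Markers of the tissue were read on the same arrays, since in bulk RNA fewer cells of a type and less RNA per cell cannot be told apart. The summed intensity of 7 measured hepatocyte markers ran from 1146 to 2012 on control and from 963 to 1185 on NaPB, with none at the floor on all arrays. The sum of 8 Kupffer cell markers ran from 30.4 to 33.1 on control and from 21.5 to 25.2 on NaPB, without overlap, with Timd4 at the floor on all arrays. How often sums of other genes do not overlap was not counted. The sums of sinusoidal endothelial, stellate, cholangiocyte, intestinal and pancreatic markers overlapped between the diets, with the pancreatic Cpb1 at the floor on all arrays. Most of the endothelial sum was Kdr (geometric mean 113 on control and 155 on NaPB). Of 4 blood markers S100a8, a neutrophil gene, was called (6.43 ± 1.04, limma adjusted p = 0.0176), and no other marker of any list was. Over all genes 1.01% were called. S100a9, the other neutrophil gene measured, overlapped between the diets (0.84 ± 0.50, limma adjusted p = 0.677). The red cell genes Hbb-bt and Hba-a1 stood at 0.12 ± 0.34 and -0.20 ± 0.33, so the call rests on S100a8 alone. NaPB replicate 4 was at the end of its diet's range for all 8 marker lists. It had the highest hepatocyte (1185) and cholangiocyte (4.02) sums and the lowest Kupffer cell (21.5), endothelial (117), stellate (19.98), intestinal (5.27), pancreatic (2.75) and blood (40.4) sums. The part of these markers in the Cyp3a values was not tested.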

How the data were processed

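The authors scanned 1 array per sample, per the labels with Cy3-labelled cRNA, and quantified it with Agilent Feature Extraction 10.7, per the submitters' processing notes. The deposited values are linear intensities whose 75th percentile was 0.952 to 0.974 on each array, so they had been scaled near it; the rule of scaling, background correction and spot flags are not stated in the labels. NaPB replicate 2 held 3443 distinct values, against at least 62756 on each other array, so its column was deposited more coarsely. Depth does not apply; the number of arrays limits the precision.

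Of the features, 31465 carried 1 symbol. The other 31511 carried none or several, which were not counted apart, and were assigned to no gene. Of those with 1 symbol, 29050 were matched by accession to RefSeq tables (GRCm38.p6) and 3282 symbols were updated. Each gene was represented by its feature with the highest mean log2 intensity. limma 3.58.1 in R 4.3.3 was fitted with diet as the only term, with no filter and no pseudocount, and tested on simulated data; features were fitted likewise. Values up to 2 times the lowest of an array counted as at the floor, and lower bounds of folds were taken against it. Promoters were aligned with match 1, mismatch -1, gap opening -2 and extension -0.5 (Biopython 1.88). Tables and figures used Python 3.11.15, pandas 2.3.3, scipy 1.17.1 and matplotlib 3.10.9.

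Named are all Cyp3a genes; the called members of each list, or the one with the smallest p; Cyp2b10, Cyp2c55 and Nr1i2; and the 3 genes most like each member with an absolute log2 fold change of at least 1. Chromosomal neighbours, Nr1i3, Cyb5a in its list and S100a8 were added. The members and lists were chosen with earlier results of these data known. Alternatives were other scalings, filters, pseudocounts, feature rules, variance models, thresholds, arrays left out and a replicate block; counting Cyp3a41b for Cyp3a41a was chosen after seeing the data. Same-numbered arrays did not deviate together (correlations 0.23, -0.29, 0.04 and 0.23), so the numbers were not taken as pairs.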

Additional observations from a re-analysis of the deposited data

Results flagged for a closer look

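On the Cyp3a41b feature, NaPB replicate 4 stood apart from the other arrays of its diet. It read 8.523 against 20.73 to 22.87 on NaPB replicates 1 to 3, a gap of 0.901 of the range of the 4 log2 values, which is past the 95% critical value of Dixon's test. This was 1 of 22 groups of 4 arrays examined (11 features, 2 diets), and chance passes that limit in about 1 of 20. Control replicates read from 4.014 to 8.654, so replicate 4 lay within the control range. Without that array the log2 fold change of Cyp3a41b was 1.88 (limma adjusted p = 0.0200) in place of 1.54 (0.111).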

How the results depend on the processing

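All 99 values of the measured members under the alternatives kept their direction above 0. In place of 2 members called, 1 was called with genes below the median intensity left out (Cyp3a44 was not tested there), with 1 added to every value, with arrays shifted to the same median, with an adjusted p below 0.01 and with the replicate number as a block; 3 were called with array weights and 4 without control replicate 1 and NaPB replicate 4 together. With 1 array left out, 1 to 3 members were called, 3 without NaPB replicate 4 and 1 without any other. In place of 2 member features called, 4 were called with array weights, and 1 with 1 added to every value, with arrays shifted to the same median and with the replicate block; with 1 array left out it was 1 to 3. The block ended the call of Cyp3a16 (limma adjusted p = 0.0679) and no other member's. The number of pairs that passed was 0 under each alternative run for pairs (smallest adjusted exact permutation p 0.0571). Counting Cyp3a41b for Cyp3a41a left 2 members called. Calls among all genes ran from 88 to 365 with 1 array left out and were 812 with array weights, 570 without both arrays, 328 after quantile normalization, 135 with the block and 111 at the same median, in place of 209. The cause of these shifts was not tested. Signal limits Cyp3a44, whose control level is known as a bound.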
